A study of Sus scrofa with 9 samples.

Results

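The genes of the proteasome were taken as every gene symbol that begins with PSM, a letter from A to G and a number, in 2 tables of 5-hydroxymethylcytosine (5hmC) in swine mesenchymal stem/stromal cells (MSCs). The rule found 48 of the 18933 genes in the Obese and Lean table and 49 of the 18992 genes in the table of vitamin-C-treated and untreated Obese-MSCs. Of these, 48 were in both tables, and PSMG4 was in the second only. They were divided by role into 19 genes of the core particle, 6 ATPases, 16 other regulatory subunits, activators and an inhibitor, and 6 assembly chaperones, or 7 in the second table. PSMC3IP also matches the rule, but its product takes part in meiotic recombination and is no proteasome subunit, so it is counted with the members and described apart.

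Each group held 3 hMeDIP-seq libraries, an assay in which an antibody pulls down 5hmC-bearing DNA fragments for sequencing. Lean-MSCs came from female domestic pigs on standard chow, and Obese-MSCs from pigs of the same age, 3 months at the start, that ate a high-fat/high-fructose diet for 16 weeks. All MSCs were grown from subcutaneous abdominal fat of the animal, in culture with platelet lysate, with no vitamin-C beyond what the growth medium held in the Lean and untreated Obese groups and with 50 µg/mL of it added for 48 h in the treated group. The medium of all groups held a little vitamin-C, as ascorbic acid phosphate. The untreated Obese libraries serve in both comparisons, and which treated and untreated cultures shared an animal is not given. The model is diet-induced obesity read in cells after expansion in culture, not in the fat itself. The p-values measure only the spread between these libraries.

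The proteasome is the protease that degrades ubiquitin-tagged proteins. Its core particle is a barrel of stacked rings, in which alpha subunits form the gated outer rings and beta subunits the inner rings that hold the cutting sites. A cap sits on the barrel, where a ring of ATPases unfolds the substrate and non-ATPase subunits bind and remove ubiquitin. In cells exposed to interferon, inducible beta subunits replace the constitutive catalytic ones and form the immunoproteasome. The mark 5hmC is made from 5-methylcytosine by the TET enzymes, for which vitamin-C is a cofactor, and it is often found over the bodies of genes. It is a mark on DNA, and the values below are not expression.

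A value is the normalized count of reads over all exons of a gene, as the authors made it with edgeR. It is relative within a table and not divided by gene length, so levels are compared between libraries and never between genes. In the lowest genes, the typical value of the smallest step was 0.739 to 1.22 normalized counts in the Obese and Lean table and 0.821 to 1.29 in the vitamin-C table, so a value of a few normalized counts stands for a few reads. A group whose mean was at or below 3 normalized counts is treated as at the floor, and a fold change against it is given only as a bound, with its mean set at 3 normalized counts. Library totals ran from 494566 to 522269 in the former and from 547242 to 593846 in the latter. Exonic 5hmC cannot check the cell type as expression would. The genes of the MSC surface markers NT5E, THY1 and ENG had group means of 17.1 to 64.0 normalized counts, and those of CD34 and PTPRC, which MSCs lack as proteins, had group means of 17.8 to 59.3. CD14 ranged from 0 to 4.83. Of the MSC, blood, adipocyte and endothelial marker genes read, ENG and CD14 had every Obese library above every Lean library, as did 5.7% of all genes. The means of ENG were 57.3 against 40.4 normalized counts, and those of CD14 were 2.02 against 0. CD14 was at the floor in both groups, with 0.650, 0.924 and 4.49 normalized counts in the Obese libraries. CDH5 had every treated library below every untreated library, at 13.8 against 17.2, as did 2.67% of all genes. The part of such differences in the values of the members was not tested.

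The members lie on 14 chromosomes of Sscrofa11.1, with 10 of them on chromosome 7, 8 on chromosome 12 and 7 on chromosome 6, and PSMD10 is on the X chromosome. Within 100 kb of each other lie only PSMB8 and PSMB9, at a gap of 10466 bp, PSMB11 and PSMB5, at 7847 bp, and PSME2 and PSME1, at 3958 bp, all 3 pairs on chromosome 7. The annotated spans of 11 members overlap another gene, and for 10 of them that gene is protein-coding. Reads over such shared stretches cannot be assigned to one gene from these values. Together the members held 0.119% to 0.145% of all normalized counts of a library in the Obese and Lean table and 0.119% to 0.130% in the vitamin-C table. A library had 5 to 10 members at or below 3 normalized counts in the former and 6 to 11 in the latter.

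Obese-MSCs were first compared with Lean-MSCs, which asks whether the diet of the pig left a difference in 5hmC of these genes. Only PSMC1, an ATPase of the cap that helps to open the gate of the core, had every Obese library on one side of every Lean library, at 1.95 times the Lean mean. The other members overlapped between the groups. No member passed a limma adjusted p-value of 0.05, and 20 of the 40 members tested had a higher and 20 a lower mean in Obese-MSCs. The summed 5hmC of all members was 636 ± 41.2 in Obese-MSCs versus 648 ± 76.8 normalized counts in Lean-MSCs (SD, n = 3 per group), with libraries that overlapped.

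PSMC1 lies on chromosome 7 from 112027904 to 112041360. Its values were 29.2, 16.0 and 22.4 normalized counts in the Obese and 12.4, 8.93 and 13.3 in the Lean libraries. All 3 Obese libraries stood above the highest Lean library, and the lowest of them, library 2, was closest to it. The means were 22.5 ± 6.58 and 11.6 ± 2.32 normalized counts (SD, n = 3 per group), a log2 fold change of 0.96 that ranged from 0.73 to 1.16 when single libraries were left out. A two-sided exact permutation test of PSMC1 returned p = 0.1, below which 3 against 3 libraries cannot go. With limma, on the log2(value + 1) scale, the difference was 0.88 with an SE of 0.32, an unadjusted p of 0.0129 and an adjusted p of 0.679. Without Lean library 8 or without Obese library 1 the unadjusted limma p was above 0.05. The span of PSMC1 overlaps NRDE2, which had 94.8 ± 23.9 in Obese-MSCs versus 93.2 ± 19.5 normalized counts in Lean-MSCs (SD, n = 3 per group), with libraries that overlapped. Its part in the reads counted for PSMC1 was not tested.

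The other ATPases unfold substrates in the same ring and all had overlapping Obese and Lean libraries. PSMC2 had 5.44, 8.61 and 1.4 normalized counts in the Obese and 1.23, 0.987 and 7.14 in the Lean libraries. One library of each group stood apart from its own group, Obese library 3 on the low side and Lean library 9 on the high side. Lean library 9 narrowed the difference, and without it the Lean mean was at the floor. The log2 fold change of 0.72 was 0.13 without Obese library 2. PSMC3 had 18.2 ± 4.35 in Obese-MSCs versus 16.0 ± 5.37 normalized counts in Lean-MSCs, and PSMC6 had 7.67 ± 3.89 against 6.69 ± 2.04 (SD, n = 3 per group). PSMC4 had 4.82 ± 2.35 against 6.25 ± 1.42, and PSMC5 had 8.48 ± 0.925 against 9.11 ± 1.10 (SD, n = 3 per group). The limma adjusted p-values of these 5 genes lay between 0.890 and 0.989. Summed over the 6 ATPases, 5hmC was 77.6, 55.8 and 67.1 normalized counts in the Obese and 52.1, 51.6 and 54.4 in the Lean libraries. The sums did not overlap, and without PSMC1 they did, at 44.3 ± 4.37 against 41.1 ± 1.51 normalized counts (SD, n = 3 per group). This held on the deposited values, after rescaling by size factors and after quantile normalization.

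**Figure D1:**
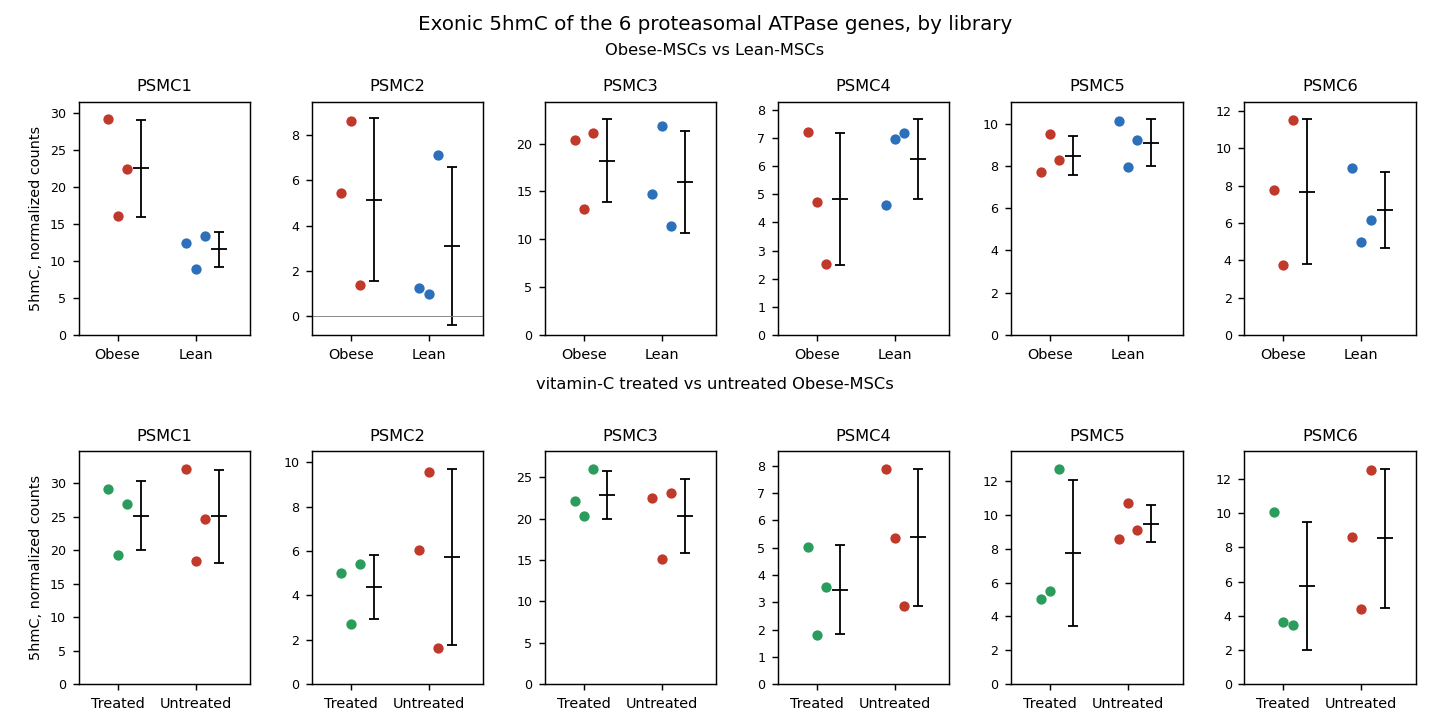
Exonic 5hmC in normalized counts of the 6 ATPase genes (panels) in each library (points), with the group mean and SD as black bars. The upper row holds Obese-MSCs and Lean-MSCs, and the lower row vitamin-C-treated and untreated Obese-MSCs from a separately normalized table. The Obese and Lean points are apart for PSMC1 only, at 16.0 to 29.2 against 8.93 to 13.3 normalized counts.

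Among the alpha subunits, whose rings gate the core, 3 of the 6 tested had a higher and 3 a lower mean in Obese-MSCs. PSMA2 had the lowest fold change of the members with means above 3 in both groups. Its values were 4.79, 3.80 and 1.32 normalized counts in the Obese and 3.49, 4.96 and 7.17 in the Lean libraries, which overlapped, for a log2 fold change of -0.66. PSMA1 stood at the other end of the alpha subunits, with a log2 fold change of 0.54. Its Obese libraries, at 5.47, 2.80 and 6.93 normalized counts, lay on both sides of the narrow Lean range of 3.09 to 3.97. PSMA3 had 9.63 ± 2.59 in Obese-MSCs versus 14.6 ± 3.86 normalized counts in Lean-MSCs (SD, n = 3 per group), a log2 fold change of -0.60. PSMA5, PSMA6 and PSMA7 had log2 fold changes between -0.04 and 0.07, and PSMA4, at 3.91 ± 2.3 against 3.13 ± 0.902 normalized counts (SD, n = 3 per group), was below the mean required for limma.

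PSMA8, the alpha subunit known from the testis, was at the floor in Obese-MSCs. It had 1.61, 0 and 1.17 normalized counts in the Obese and 8.75, 1.98 and 1.05 in the Lean libraries. Only Lean library 7 stood above the floor, and it alone put the Lean mean at 3.93 normalized counts, so that the Obese mean was at least 1.31-fold lower when set at the floor.

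The constitutive catalytic subunits PSMB5, PSMB6 and PSMB7, which carry the chymotrypsin-like, caspase-like and trypsin-like sites, all had lower means in Obese-MSCs with libraries that overlapped. PSMB6 had 3.85, 5.72 and 2.47 normalized counts in the Obese and 7.84, 5.96 and 5.15 in the Lean libraries. Obese library 2 lay within the Lean range and the remaining libraries below it, for a log2 fold change of -0.65 and a limma adjusted p of 0.866. PSMB5 had 5.55, 3.78 and 3.60 normalized counts in the Obese and 5.68, 8.94 and 3.11 in the Lean libraries, a log2 fold change of -0.46. Lean library 8 was the highest and Lean library 9 the lowest of all 6. PSMB7 had 18.7 ± 2.99 in Obese-MSCs versus 19.8 ± 10.3 normalized counts in Lean-MSCs (SD, n = 3 per group), a log2 fold change of -0.08.

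Of the inducible catalytic subunits PSMB8, PSMB9 and PSMB10, PSMB8 alone reached the mean required for limma. It had 10.4, 11.3 and 29.8 normalized counts in the Obese and 14.6, 11.9 and 12.3 in the Lean libraries. Obese library 3 stood far above the other 5, and the log2 fold change of 0.41 was -0.25 without it. PSMB9, next to it on chromosome 7, did not share this high value, with 1.5, 2.86 and 1.24 normalized counts in the Obese and 0.0397, 1.99 and 2.05 in the Lean libraries, which left both groups at the floor. PSMB10 had 2.33, 0.919 and 3.44 normalized counts in the Obese and 2.24, 2.98 and 0.0109 in the Lean libraries. Both are too low for a fold change. PSMB11, the beta subunit of the thymus, had 3.14 ± 1.42 in Obese-MSCs versus 3.77 ± 2.91 normalized counts in Lean-MSCs (SD, n = 3 per group). The non-catalytic beta subunits PSMB1 to PSMB4 had log2 fold changes from -0.54, for PSMB4, to 0.25, for PSMB2, and without Lean library 7 the Lean mean of the latter was at the floor.

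**Figure D2:**
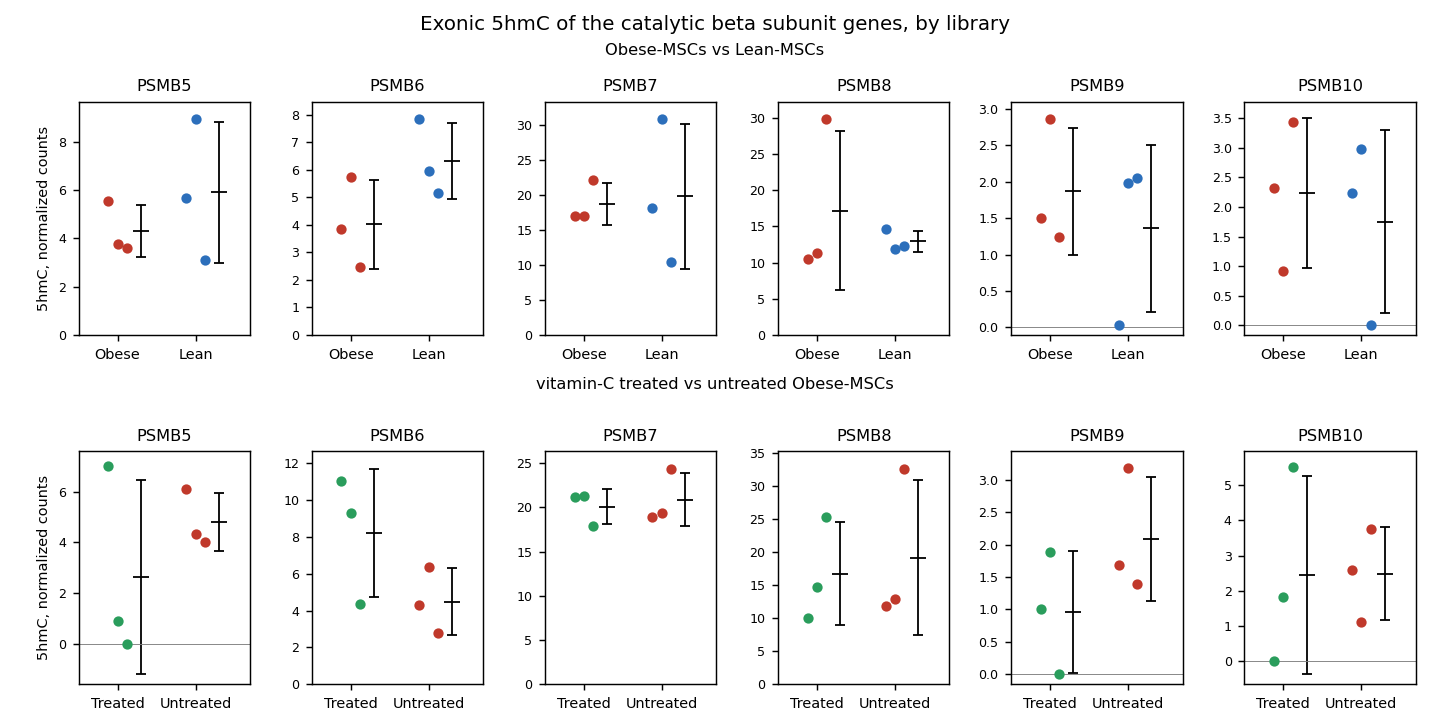
Exonic 5hmC in normalized counts of the catalytic beta subunit genes (panels) in each library (points), with the group mean and SD as black bars, for Obese-MSCs and Lean-MSCs in the upper row and treated and untreated Obese-MSCs in the lower row. Every panel shows overlapping groups, and the single high Obese library of PSMB8 is seen at 29.8 normalized counts in the upper row and at 32.6 in the lower row, where the same library was normalized anew.

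The non-ATPase subunits of the cap hold the ubiquitin receptors and the enzyme that cuts ubiquitin chains from the substrate. Of the 10 tested, 6 had a higher and 4 a lower mean in Obese-MSCs, and 9 were within 1.4-fold. The exception was PSMD13, a structural subunit, which is named here after its values were seen. It had 4.93, 0.914 and 1.27 normalized counts in the Obese and 7.80, 3.97 and 5.14 in the Lean libraries. Obese library 1 lay within the Lean range while the other 2 were below it, at about the level of the lowest step. The Obese mean of 2.37 was at the floor, and at least 1.88-fold lower than the Lean mean when set at it, with p = 0.2 by two-sided exact permutation. The limma unadjusted p was 0.0643 and the adjusted p 0.762. PSMD14, the deubiquitinating enzyme of the cap, was at the floor in both groups, with 1.53, 1.90 and 1.22 normalized counts in the Obese and 3.35, 2.98 and 1.04 in the Lean libraries. The other 9 subunits tested had log2 fold changes from -0.10, for the scaffold PSMD3, to 0.19, for the ubiquitin receptor PSMD4.

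Among the activators, which open the core without the ATPase cap, PSME3 had 25.1 ± 5.75 in Obese-MSCs versus 32.7 ± 5.84 normalized counts in Lean-MSCs (SD, n = 3 per group), a log2 fold change of -0.38. PSME1 and PSME2, whose products form a joint ring induced by interferon, had log2 fold changes of -0.17 and 0.11, and PSME4, whose product binds the core in the nucleus, had -0.23. PSMF1, which inhibits the core in the test tube, had 5.66 ± 0.243 normalized counts against 4.86 ± 1.27 (SD, n = 3 per group).

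Of the chaperones that assemble the base of the cap, PSMD5 had 16.3, 20.9 and 12 normalized counts in the Obese and 39.1, 17.9 and 18.5 in the Lean libraries. Lean library 7 stood far above all others, and the log2 fold change of -0.62 was -0.15 without it. PSMD9 had 30.2 ± 3.29 normalized counts against 31.1 ± 3.80 in Lean-MSCs, and PSMD10 had 30.4 ± 7.01 against 25.5 ± 10.5 (SD, n = 3 per group). PSMD10 shares its span with ATG4A, an autophagy protease gene whose Obese libraries did not overlap the Lean libraries, at 10.9 ± 1.18 against 6.32 ± 1.45 normalized counts (SD, n = 3 per group). Whether shared reads enter the value of PSMD10 was not tested. The chaperones of the core, PSMG1 and PSMG3, had log2 fold changes of -0.04 and 0.14, and PSMG2 was at the floor in both groups, with means of 0.642 and 1.39 normalized counts. PSMC3IP had 3.79 ± 0.922 against 2.79 ± 0.425 normalized counts (SD, n = 3 per group), with groups that overlapped.

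By the criteria of the study's methods as applied here to the deposited values, an unadjusted p-value of 0.05 or less in a two-sided test with equal variances and a ratio of means of at least 1.4 or at most 0.7, 0 of the 48 members had high and 0 low 5hmC in Obese-MSCs. Over all genes, 2.07% were high and 2.43% low. PSMC1 had a sufficient ratio and missed the p-value, as did others such as PSMC2 and PSMA2. Groups did not overlap with higher values in Obese-MSCs for 1 of 48 members, against 5.7% of all genes, and with lower values for 0 members, against 6.06%. With limma, 1 of 40 members tested had an unadjusted p of 0.05 or less, against 6.81% of 15146 genes. At an adjusted p of 0.05, 0 members and 0 of all genes passed (0%). The median log2 fold change of the 40 members was 0.01, as it was over all genes tested. The mean was higher in Obese-MSCs for 20 of the 40 members and for 50.7% of all genes tested, and 77.5% of members and 77.0% of all genes were within 1.4-fold. The 95% interval of a member's limma difference reached a median of 0.74 on the log2 scale to either side with 3 libraries per group. In a member with such an interval, a smaller difference has an unadjusted limma p above 0.05. The width differed between members, and the larger difference of PSMC1, at 0.88, also missed the adjusted threshold.

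**Figure D3:**
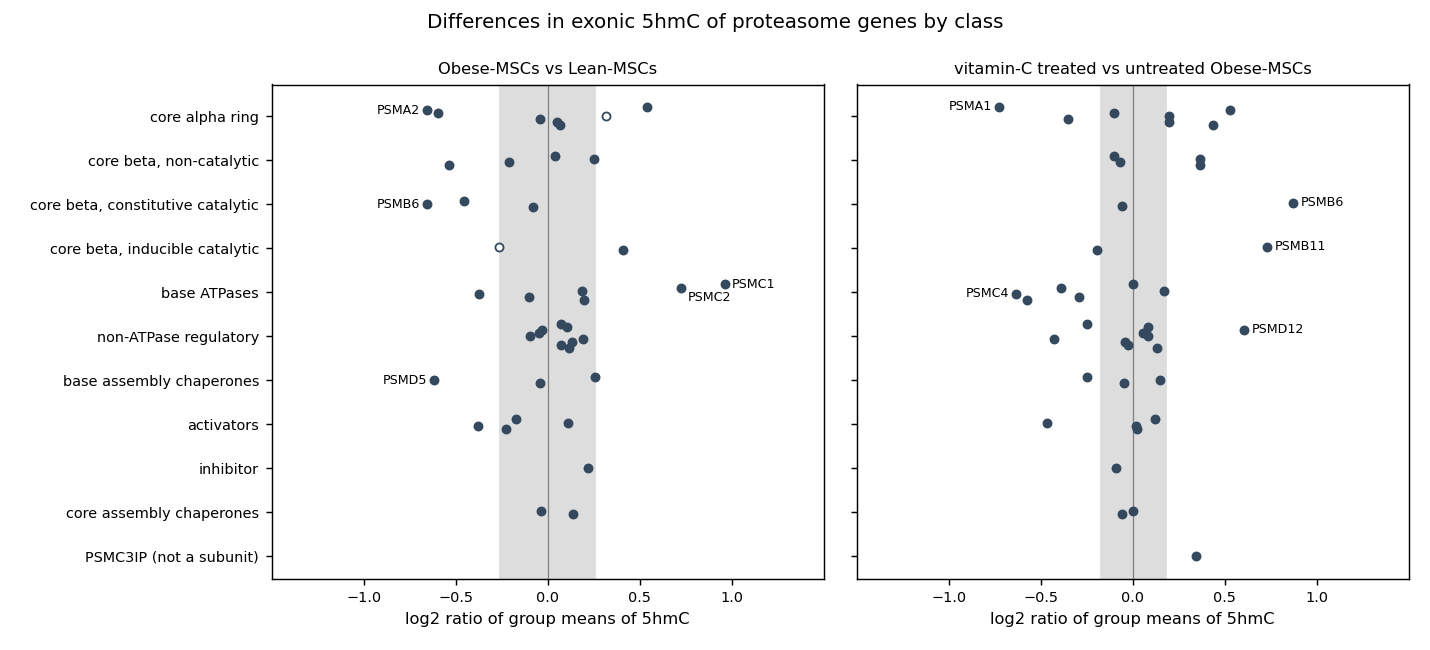
Log2 ratio of group means of 5hmC (horizontal axis) for each member with both group means above 3 normalized counts (points), by class, in both comparisons. Filled points were tested with limma and open points, on the left only, lay below the mean required. The grey band holds the central part of all genes tested, from the 25th to the 75th percentile, at -0.26 to 0.26 on the left and -0.17 to 0.18 on the right. Points lie on both sides of 0 in the alpha ring, the ATPases and the non-ATPase class of both comparisons. PSMB11, the beta subunit of the thymus, is placed with the inducible beta subunits.

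The comparison of treated with untreated Obese-MSCs asks whether vitamin-C changed 5hmC of the same genes in culture. PSMA8 and PSMG2 had every treated library above every untreated library, both at a few normalized counts or less. PSMA5, an alpha subunit of the core, had every treated library below every untreated library, at 0.785 times the untreated mean. PSMC1, the gene that stood apart between Obese-MSCs and Lean-MSCs, had the same mean with and without vitamin-C. No member had a limma unadjusted p-value of 0.05 or less. The summed 5hmC of all members came to 714 ± 48.9 normalized counts in the treated and 709 ± 42.1 in the untreated libraries (SD, n = 3 per group), which overlapped.

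In this table, where the same untreated libraries have values about 1.10 to 1.13 times as high for the members, PSMC1 had 29.2, 19.3 and 26.9 normalized counts in the treated and 32.2, 18.3 and 24.7 in the untreated libraries. The ranges lay within each other, with means of 25.1 ± 5.14 and 25.1 ± 6.93 (SD, n = 3 per group). The limma difference was 0.02 on the log2(value + 1) scale with a 95% interval from -0.64 to 0.68. The other ATPases overlapped as well, and 4 of the 6 had a lower mean with vitamin-C. PSMC4 had 5.03, 1.80 and 3.58 normalized counts in the treated and 7.90, 5.37 and 2.86 in the untreated libraries, a log2 fold change of -0.63. PSMC6 had 10.0, 3.64 and 3.49 against 8.64, 4.38 and 12.5 normalized counts, a log2 fold change of -0.57. Treated and untreated libraries were interleaved in both genes. PSMC2, PSMC3 and PSMC5 had log2 fold changes of -0.39, 0.17 and -0.29. The summed ATPases were 69.3 ± 13.9 normalized counts in the treated and 74.4 ± 11.2 in the untreated libraries (SD, n = 3 per group).

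PSMA5 had 19.1, 18.5 and 16.1 normalized counts in the treated and 21.6, 23.6 and 23.3 in the untreated libraries. The gap between the highest treated and the lowest untreated library was smaller than the range within the treated group. The means were 17.9 ± 1.62 and 22.8 ± 1.10 normalized counts (SD, n = 3 per group), a log2 fold change of -0.35 that ranged from -0.40 to -0.28 when single libraries were left out. By two-sided exact permutation p was 0.1, again the smallest possible, and limma gave an unadjusted p of 0.264 and an adjusted p of 1. In the Obese and Lean table the same gene had 20.5 ± 0.974 and 21.1 ± 6.93 normalized counts (SD, n = 3 per group).

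PSMA8 had 4.02, 3.70 and 2.64 normalized counts in the treated and 1.77, 0.0171 and 1.29 in the untreated libraries. All untreated libraries were at the floor and 2 of the 3 treated libraries above it, for a treated mean of 3.46 ± 0.723 (SD, n = 3) that was at least 1.15-fold higher than the floor. PSMG2, a chaperone that pairs alpha subunits into the first ring, had 3.02, 2.78 and 1.75 normalized counts in the treated and 0.863, 0.0116 and 1.25 in the untreated libraries. Its treated mean of 2.52 was itself at the floor, so no fold change is given. By two-sided exact permutation p was 0.1 for each, and both lay below the mean required for limma. The span of PSMG2 overlaps CEP76, a centrosome gene with 22.6 ± 6.91 normalized counts in the treated and 21.1 ± 7.74 in the untreated libraries (SD, n = 3 per group).

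The remaining alpha subunits overlapped between treated and untreated libraries. PSMA1 had 1.01, 6.58 and 2.64 normalized counts in the treated and 6.06, 3.3 and 7.57 in the untreated libraries, the lowest fold change of the members with means above 3 in both groups, at -0.72 on the log2 scale. Treated library 5 lay within the untreated range and the other 2 below it, and without library 5 the treated mean was at the floor. PSMA2 and PSMA7 had log2 fold changes of 0.53 and 0.44, and PSMA3, PSMA4 and PSMA6 between -0.10 and 0.20.

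Among the catalytic subunits, PSMB6 had 11, 9.28 and 4.34 normalized counts in the treated and 4.30, 6.39 and 2.79 in the untreated libraries. Treated libraries 4 and 5 stood above the untreated range and library 6 lay within it, for a log2 fold change of 0.87, a limma unadjusted p of 0.154 and an adjusted p of 1. PSMB5 varied widely between treated libraries, with 7.03, 0.876 and 0 normalized counts against 6.11, 4.31 and 4.00 in the untreated libraries. Treated library 4 was the highest of all 6 and the other 2 treated libraries were the lowest, and the treated mean of 2.64, at the floor, rests on library 4. Set at the floor, it was at least 1.60-fold lower than the untreated mean. PSMB7 had 20.1 ± 1.95 against 20.9 ± 3.03 normalized counts (SD, n = 3 per group).

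Of the inducible subunits PSMB8, PSMB9 and PSMB10, only PSMB8 was above the floor in the treated and untreated groups. PSMB8 had 10.1, 14.8 and 25.3 normalized counts in the treated and 11.9, 13 and 32.6 in the untreated libraries, so that 1 library in each group stood far above the other 2. PSMB9 had 1.01, 1.88 and 0 normalized counts against 1.69, 3.19 and 1.4, and PSMB10 had 0.00329, 1.83 and 5.52 against 2.59, 1.11 and 3.75. PSMB11, the beta subunit of the thymus, had 1.01, 4.59 and 11.9 normalized counts in the treated and 2.53, 5.31 and 2.70 in the untreated libraries. Its log2 fold change of 0.73 rested on treated library 6, without which the treated mean was at the floor. The non-catalytic PSMB1 to PSMB4 had log2 fold changes from -0.10 to 0.36.

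Of the non-ATPase subunits of the cap, 5 of the 9 tested had a higher and 4 a lower mean with vitamin-C, and 8 were within 1.4-fold. PSMD12, a scaffold subunit, had 43.2, 25.9 and 19.5 normalized counts in the treated and 15.4, 16.1 and 26.7 in the untreated libraries. Treated library 4 stood above all others and the rest overlapped, for a log2 fold change of 0.61 and a limma unadjusted p of 0.134. The other 8 subunits tested had log2 fold changes from -0.43, for PSMD4, to 0.13, for PSMD8. PSMD13 had 4.03, 5.56 and 6.30 normalized counts in the treated and 5.34, 1.12 and 1.45 in the untreated libraries. The treated libraries were all above untreated libraries 2 and 3, and library 1 lay among them. The untreated mean of 2.64 was at the floor, and the treated mean at least 1.76-fold higher than it. The same untreated libraries are in the comparison with Lean-MSCs, so the 2 differences of PSMD13 are not independent of each other. PSMD14 had 2.02, 5.59 and 5.41 normalized counts in the treated and 1.71, 2.14 and 1.36 in the untreated libraries. The untreated group was at the floor and the treated mean at least 1.45-fold higher than it, with treated library 4 inside the untreated range.

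**Figure D4:**
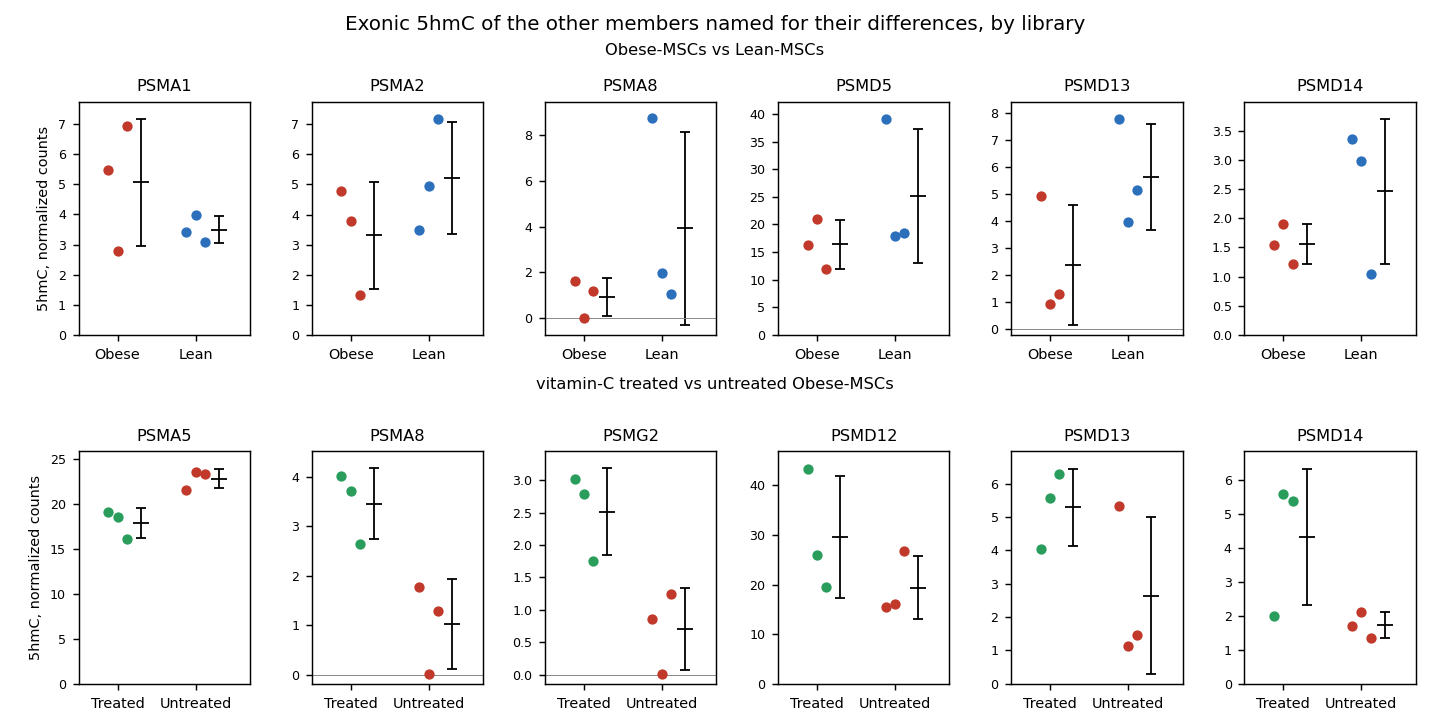
Exonic 5hmC in normalized counts of the other members named for their differences (panels) in each library (points), with the group mean and SD as black bars, for Obese-MSCs and Lean-MSCs in the upper row and treated and untreated Obese-MSCs in the lower row. Groups are apart only for PSMA5, PSMA8 and PSMG2 in the lower row, and PSMA8 and PSMG2 reach 4.02 and 3.02 normalized counts there.

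Of the activators with vitamin-C, PSME2 had 26.2, 25 and 22.3 normalized counts in the treated and 43.4, 34.3 and 23.8 in the untreated libraries, a log2 fold change of -0.47. Its neighbour PSME1, at 5.04, 19.7 and 7.95 against 15.8, 8.62 and 5.57 normalized counts, had a log2 fold change of 0.12. In the untreated libraries both genes were highest in library 1 and lowest in library 3, and in the treated libraries their order differed. PSME3 had 28.4 ± 15.6 against 28.0 ± 6.27 normalized counts, and PSME4 had 47.8 ± 4.84 against 46.9 ± 9.02 (SD, n = 3 per group). PSMF1 had 5.93 ± 0.786 against 6.31 ± 0.252 normalized counts (SD, n = 3 per group). The base chaperones PSMD5, PSMD9 and PSMD10 had log2 fold changes of 0.15, -0.04 and -0.25, and the core chaperones PSMG1 and PSMG3 of 0.00 and -0.06. PSMG4 was listed at 0 in every untreated library and at 1.01, 0.930 and 0 normalized counts in the treated libraries, all below the floor. PSMC3IP had 5.36 ± 1.78 against 4.22 ± 0.929 normalized counts (SD, n = 3 per group), with groups that overlapped.

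By the study's criteria, 2 of the 49 members, PSMA8 and PSMG2, had high 5hmC with vitamin-C, against 1.11% of all genes, and 0 had low 5hmC, against 0.806%. Without treated library 5 neither met them. Without treated library 6, 5 members met the criteria for high or low 5hmC. PSMA8, PSMB6, PSMG2 and PSMG4 were then high, and PSMC5 was low, at a log2 fold change of -0.85. Groups did not overlap with higher treated values for 2 members, against 3.24% of all genes, and with lower values for 1 member, against 2.67%. With limma, 0 of the 41 members tested had an unadjusted p of 0.05 or less, against 0.974% of 15192 genes, and 0 members and 0 of all genes (0%) passed an adjusted p of 0.05. The median log2 fold change of the 41 members was 0.00, and that over all genes tested was 0.00 as well. The mean was higher with vitamin-C for 21 of the 41 members and for 50.2% of all genes tested, and 82.9% of members and 86.8% of all genes were within 1.4-fold. The 95% interval of a member's limma difference reached a median of 0.85 on the log2 scale to either side.

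**Figure D5:**
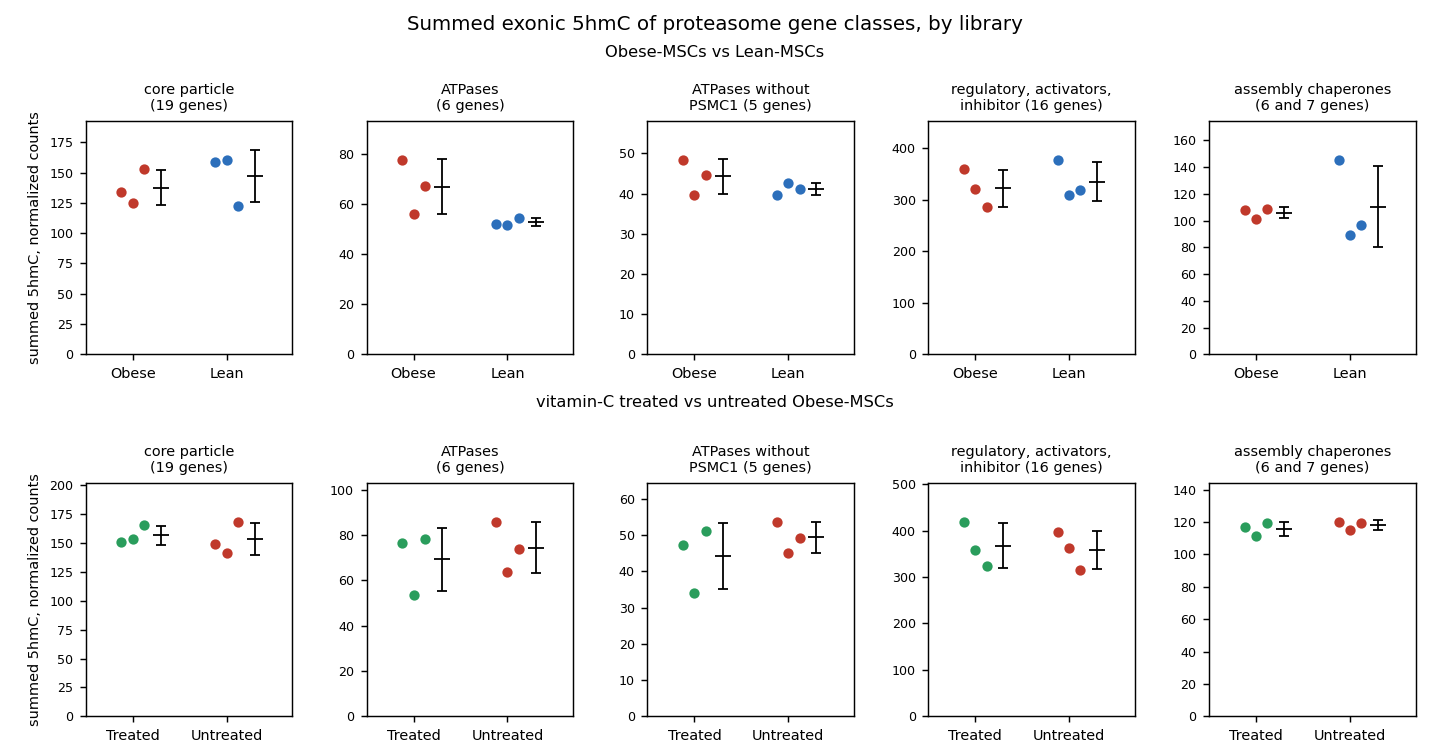
Summed exonic 5hmC in normalized counts of each class of members (panels) in each library (points), with the group mean and SD as black bars and axes from 0. In the upper row the Obese and Lean sums are apart for the ATPases only, at 55.8 to 77.6 against 51.6 to 54.4 normalized counts, and they overlap once PSMC1 is left out. In the lower row all classes overlap.

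The spread between libraries of one group depended on the level of a member. Among members with a mean of 3 to 8 normalized counts, the median coefficient of variation within groups was 42.8% in the first table and 47.2% in the second, against 43.2% and 45.4% over all genes at that level. It was 29.9% and 39.8% for members with a mean of 8 to 20 normalized counts, against 30.3% and 32.2% over all genes. Above 20 normalized counts it was 25.1% and 17.5%, against 21.0% and 23.1%.

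Partners of the proteasome were read from a list of 37 genes, of which 33 were in the tables. It holds proteasome-bound enzymes and receptors, ubiquitin genes and their activating enzymes, shuttle factors, the transcription factors of subunit genes and antigen processing genes. Between Obese-MSCs and Lean-MSCs, 15 of the 29 tested had a higher and 14 a lower mean, 2 of the 33 had high 5hmC by the study's criteria against 2.07% of all genes, and 2 of the 29 had a limma unadjusted p of 0.05 or less against 6.81% of all genes tested. UBE3C, a ubiquitin ligase bound to the proteasome, had 42.6 ± 6.32 in Obese-MSCs versus 27.4 ± 6.65 normalized counts in Lean-MSCs (SD, n = 3 per group). Its limma unadjusted p was 0.0296 and its adjusted p 0.703. NPLOC4, a cofactor of the unfoldase VCP, had 19.8 ± 0.332 against 13.5 ± 2.93 normalized counts, and VCP had 12.9 ± 6.45 against 22.6 ± 7.79 (SD, n = 3 per group), with limma adjusted p-values of 0.785 and 0.704. Libraries were apart for UBE3C and NPLOC4 and overlapped for VCP. NFE2L1, the transcription factor that restores proteasome synthesis when the proteasome is inhibited, had 97.6 ± 6.67 in Obese-MSCs versus 76.4 ± 9.08 normalized counts in Lean-MSCs (SD, n = 3 per group), with libraries that did not overlap and a limma adjusted p of 0.793.

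With vitamin-C, 16 of the 30 listed genes tested had a higher and 14 a lower mean, and 0 had a limma unadjusted p of 0.05 or less, against 0.974% of all genes tested. Of the list, 1 gene had low 5hmC by the study's criteria, against 0.806% of all genes. It was the shuttle gene UBQLN2, at 3.1 ± 2.06 normalized counts in the treated and 6.71 ± 0.872 in the untreated libraries (SD, n = 3 per group). Over the list, 0 genes passed a limma adjusted p of 0.05 in either comparison.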

How the data were processed

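Swine hMeDIP-seq libraries were grouped from the submitters' labels. For the deposited signal, the authors aligned paired reads with Bowtie 2 (v2.3.3.1) to susScr 11.1, removed duplicates with Picard (v1.67), counted exonic reads per gene with htseq-count (v0.9.1) and normalized the counts with edgeR (v3.28.1). These values are fractional, and whole reads could not be recovered, so no count test was run, no counting interval is given and depth in reads is unknown. The 2 tables were normalized separately, and each comparison was made within its table. In the vitamin-C data, 645 values of numerical residue were set to 0. All columns were used.

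The study's criteria were applied to the deposited values. With limma 3.58.1 in R 4.3.3, log2(value + 1) was fitted with a trend to the 80% of genes with the highest means, and p-values were adjusted by Benjamini-Hochberg over all of them. The log2 fold change of a single gene compares group means, with no pseudocount added, and was tested by two-sided exact permutation over 20 arrangements. Other steps used scipy 1.17.1, pandas 2.3.3, numpy 2.4.6 and matplotlib 3.10.9 under Python 3.11.15. Positions came from RefSeq's Sscrofa11.1 by symbol. No sequence or exon annotation was used. The scripts were tested on simulated data.

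Values were given for the catalytic subunits, the ATPases, the 3 highest and 3 lowest fold changes among members with means above 3 in both groups, members whose groups did not overlap or that met the criteria, and members with a group at the floor. Members, classes and lists were chosen with earlier results of these data known. Alternatives were other pseudocounts, filters, variance models, thresholds and scalings, each library left out in turn, and medians without chaperones, the last chosen after seeing the data. Some genes of the partner list are not reported here.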

Additional observations from a re-analysis of the deposited data

How the results depend on the processing

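Most results on the members kept their value under the alternatives. The count of members that met the study's criteria in Obese-MSCs against Lean-MSCs, 0 as reported, was 1 after quantile normalization and 1 with the test on log2(value + 1), PSMC1 in both, and ranged from 0 to 3 with 1 library left out, with 3 without Obese library 2 (PSMA1, PSMC1 and PSMC3IP). The count with an unadjusted limma p of 0.05 or less, 1 as reported, was 2 with no filter on low values and 2 in limma without the trend, PSMC1 and PSMD13 in both. It ranged from 0 to 1 with a library left out, with 0 without Lean library 8 and PSMD13 in place of PSMC1 without Obese library 1. With vitamin-C the count by the criteria, 2 as reported, was 1 after quantile normalization and 1 with the test on log2(value + 1), PSMG2 in both, and ranged from 0 to 5 with a library left out. The unadjusted limma count, 0 as reported, was 1 with no filter, PSMA8, and ranged from 0 to 2, with 2 without treated library 6 (PSMB6 and PSMD12). The median log2 fold change with vitamin-C was -0.0486 as a mean difference of log2(value + 1) and ranged from -0.0473 to 0.0910 with a library left out. The cause of these shifts was not tested. The counts at an adjusted p of 0.05 were 0 in both comparisons under every alternative run. Of 656 alternative fold changes of single members with both means above 3, 4 in Obese-MSCs against Lean-MSCs and 5 with vitamin-C moved by more than the spread between libraries. Some changed sign when a library was left out. In Obese-MSCs against Lean-MSCs, PSMB8 went from 0.41 to -0.25 without Obese library 3, and PSMB11 from -0.26 to 0.53 without Lean library 8. No paired analysis was possible because the groups compared share no replicate numbers.

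With 3 libraries per group and many members at a few normalized counts, the level of a gene limits what can be seen, and exact permutation cannot go below p = 0.1. The values are relative within a table, so a change of total 5hmC shared by all genes would not show.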
